A study of Mus musculus with 18 samples.

Results

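Immunoglobulin kappa variable (Igkv) segments encode the first part of the variable domain of the kappa light chain. They were taken from the gene table as the genes whose symbol begins with Igkv and whose biotype in the GRCm38 annotation is IG_V_gene. The rule gave 100 segments among 51912 gene identifiers, and the other 60 identifiers with an Igkv symbol, which the annotation lists as variable pseudogenes, were left out. The segments lie on mouse chromosome 6 between positions 67555497 and 70704177 (GRCm38) and fall into 20 numbered families by sequence. The constant gene Igkc lies beyond the high-coordinate end of this stretch, at positions 70726435 to 70726966 on the plus strand, so that 38 segments share its strand and 62 lie on the opposite strand.

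The libraries came from a study of endophilin A2, an endocytic adaptor protein encoded by Sh3gl1, in mouse B cells. Poly(A) RNA was sequenced from C57BL/6 B cells in 6 groups of 3 libraries, 18 in all, from littermates of the respective genotypes. Untreated wild-type (WT) and Sh3gl1-/- mice gave sorted transitional and follicular cells, and follicular cells of both genotypes were also sequenced after culture with CD40L, the T cell ligand that activates B cells through CD40. The labels give 14 h for this culture, and the study's own text gives another duration. Sh3gl1 was deleted in the germline, so every cell type of these mice lacked the gene, and all 6 groups shared the C57BL/6 background. The study's gates placed transitional cells among B220+CD93+ and follicular cells among B220+CD93- spleen cells, with CD23, CD21/35 and IgM as further markers. Each library held RNA of many cells, so a segment's level reflected both how many cells used it and how much RNA each cell made, and these cannot be told apart.

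A developing B cell joins 1 variable segment to 1 joining (Jk) segment on a kappa allele, and the product is spliced to Igkc. Segments on the strand of Igkc are joined by deleting the DNA between them and Jk, and segments on the opposite strand by inverting it. Cells whose receptor binds self antigen can rearrange the kappa locus again or turn to the lambda locus before they mature. Plasma cells make far more immunoglobulin RNA per cell than resting B cells, and a cell that has expanded carries its segment into all of its progeny.

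Igkv12-41 is shown first, since 1 library departed from the others mainly through it. Its variable exon (chr6:69858420-69858717, minus strand, GRCm38) is printed 5′ to 3′ beside that of its nearest relative, Igkv12-44 (chr6:69814631-69814928, minus strand). Capitals mark the 13 of 298 aligned bases at which the exons differ, an identity of 95.6% from the GENCODE M21 transcripts:
Igkv12-41: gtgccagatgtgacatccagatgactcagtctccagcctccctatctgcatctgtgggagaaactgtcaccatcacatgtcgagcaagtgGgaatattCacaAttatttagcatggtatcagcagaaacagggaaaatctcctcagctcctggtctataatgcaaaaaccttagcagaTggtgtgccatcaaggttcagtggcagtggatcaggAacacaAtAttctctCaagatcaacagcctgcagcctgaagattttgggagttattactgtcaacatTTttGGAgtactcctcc
Igkv12-44: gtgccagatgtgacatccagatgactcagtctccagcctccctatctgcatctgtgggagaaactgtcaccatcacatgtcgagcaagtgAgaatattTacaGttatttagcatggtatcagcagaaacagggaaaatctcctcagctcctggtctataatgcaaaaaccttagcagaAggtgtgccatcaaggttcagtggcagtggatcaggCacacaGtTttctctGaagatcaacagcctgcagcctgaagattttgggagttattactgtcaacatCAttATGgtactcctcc

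The last 60 bases of the variable exon, which carry the germline part of the third hypervariable loop, are given for the other segments on which the results turn. Capitals run from the conserved cysteine codon to the end of the exon. The first 4 segments stood high in 1 or more transitional Sh3gl1-/- libraries:
Igkv6-15: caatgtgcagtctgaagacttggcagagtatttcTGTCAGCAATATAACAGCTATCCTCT
Igkv4-59: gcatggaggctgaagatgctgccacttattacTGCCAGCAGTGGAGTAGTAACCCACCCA
Igkv14-126: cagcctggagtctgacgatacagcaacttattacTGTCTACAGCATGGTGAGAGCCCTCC
Igkv7-33: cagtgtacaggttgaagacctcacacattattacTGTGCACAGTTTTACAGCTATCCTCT
The other 4 differed in share or level between transitional, follicular and CD40L-treated cells:
Igkv10-96: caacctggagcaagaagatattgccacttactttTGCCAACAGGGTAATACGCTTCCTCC
Igkv1-135: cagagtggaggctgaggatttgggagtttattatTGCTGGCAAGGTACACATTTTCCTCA
Igkv14-111: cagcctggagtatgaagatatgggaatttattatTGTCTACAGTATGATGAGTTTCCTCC
Igkv4-51: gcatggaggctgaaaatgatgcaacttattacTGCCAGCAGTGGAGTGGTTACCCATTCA

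Segments differ little within a family, which sets how far counts can be assigned. The median identity of a segment's variable exon to its nearest relative was 94.2%, with a range of 65.7% to 99.0%. For 45 segments it was above 95% and for 6 above 98%, and the nearest relative belonged to the same family for 93 of 100. The expected counts of 79 segments were not whole numbers in most libraries, because reads that fit several segments had been divided between them, and those of 10 segments were whole in every library. Values of close relatives are therefore uncertain in their split. Igkv14-126 and Igkv14-111 are each other's nearest relative at 90.9%, and Igkv7-33 has none above 80.3%.

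Total counts ran from 12404688 to 18366078 per library, of which 51508 to 173807 fell on Igkv segments. A segment with 3 counts, the limit that a count of 0 allows, corresponds to 0.0017% to 0.0058% of the Igkv counts of a library, counting error only. Sh3gl1 stood at 29.7 to 57.7 CPM (counts scaled to the TMM-adjusted library total) in the 9 WT libraries and at 0.0715 to 1.75 CPM in the 9 Sh3gl1-/- libraries. The transitional markers Cd93, Cd24a, Vpreb3 and Rag1 summed to 871 to 1008 CPM in WT transitional, 505 to 805 CPM in Sh3gl1-/- transitional and 297 to 457 CPM in follicular libraries. Cd24a and Vpreb3 made up most of the sum, at 309 to 400 and 496 to 561 CPM in WT transitional libraries. In Sh3gl1-/- transitional libraries they were at 163 to 246 and 284 to 471 CPM. Cd93, the marker of the gate, was at 57.4 to 72.7 CPM in WT and 57.8 to 85.8 CPM in Sh3gl1-/- transitional libraries, which overlapped. Within every group the Igkv counts of any pair of libraries differed beyond counting error (chi-square of 3.47 to 868 for each degree of freedom), so none was counted as a duplicate. Transitional Sh3gl1-/- replicates 1 and 3 stood apart from all other libraries in Igkv composition, and results that rest on them are given with and without them.

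Kappa segment use was broad in 16 of the 18 libraries. The share of a segment is its percentage of the summed Igkv expected counts of a library. The 12 segments with the highest mean share, which were Igkv6-15, Igkv10-96, Igkv12-41, Igkv6-23, Igkv1-117, Igkv1-135, Igkv19-93, Igkv12-44, Igkv4-59, Igkv12-46, Igkv1-110 and Igkv3-4, together held 40.8%. The mean of Igkv12-41, and with it this sum, includes 48.4% in transitional Sh3gl1-/- replicate 3, against 0.861% to 5.98% in the other 17 libraries. A mean share of at least 1% was reached by 34 segments, which together held 75.2%, while 17 segments stayed under 0.1%. At least 10 counts were present in every library for 95 segments. All 100 had a count in at least 1 library.

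Leaving aside transitional Sh3gl1-/- replicates 1 and 3, the leading segments differed in how far their share ranged. Igkv6-15 ranged from 4.59% to 6.04%, Igkv6-23 from 2.88% to 4.85%, Igkv1-117 from 2.94% to 4.51% and Igkv19-93 from 2.58% to 3.60% over the other 16 libraries. Igkv12-46 ranged from 2.02% to 3.10%, Igkv12-44 from 2.37% to 3.27%, Igkv4-59 from 2.01% to 3.34% and Igkv1-110 from 1.80% to 3.32%. The ranges were wider for Igkv1-135, at 2.27% to 5.63%, for Igkv10-96, at 2.87% to 6.04%, and for Igkv12-41, at 0.861% to 3.05%. Igkv3-4, a Jk-proximal segment, had separate ranges in the 3 states of WT cells, with 1.87% to 2.06% in transitional, 2.33% to 2.73% in follicular and 2.92% to 3.23% in CD40L-treated libraries. With transitional replicates 1 and 3 included, its Sh3gl1-/- ranges of 1.02% to 1.84%, 2.15% to 2.37% and 2.72% to 3.14% were in the same order and did not overlap either. The 1.02% was in replicate 3, which stood at 1.98% with Igkv12-41 left out of the sum. As a level within the whole library Igkv3-4 did not differ between transitional and follicular cells by edgeR's quasi-likelihood test. The log2 fold change was 0.006 in WT (adjusted p = 0.974) and -0.24 in Sh3gl1-/- cells (adjusted p = 0.192).

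**Figure D1:**
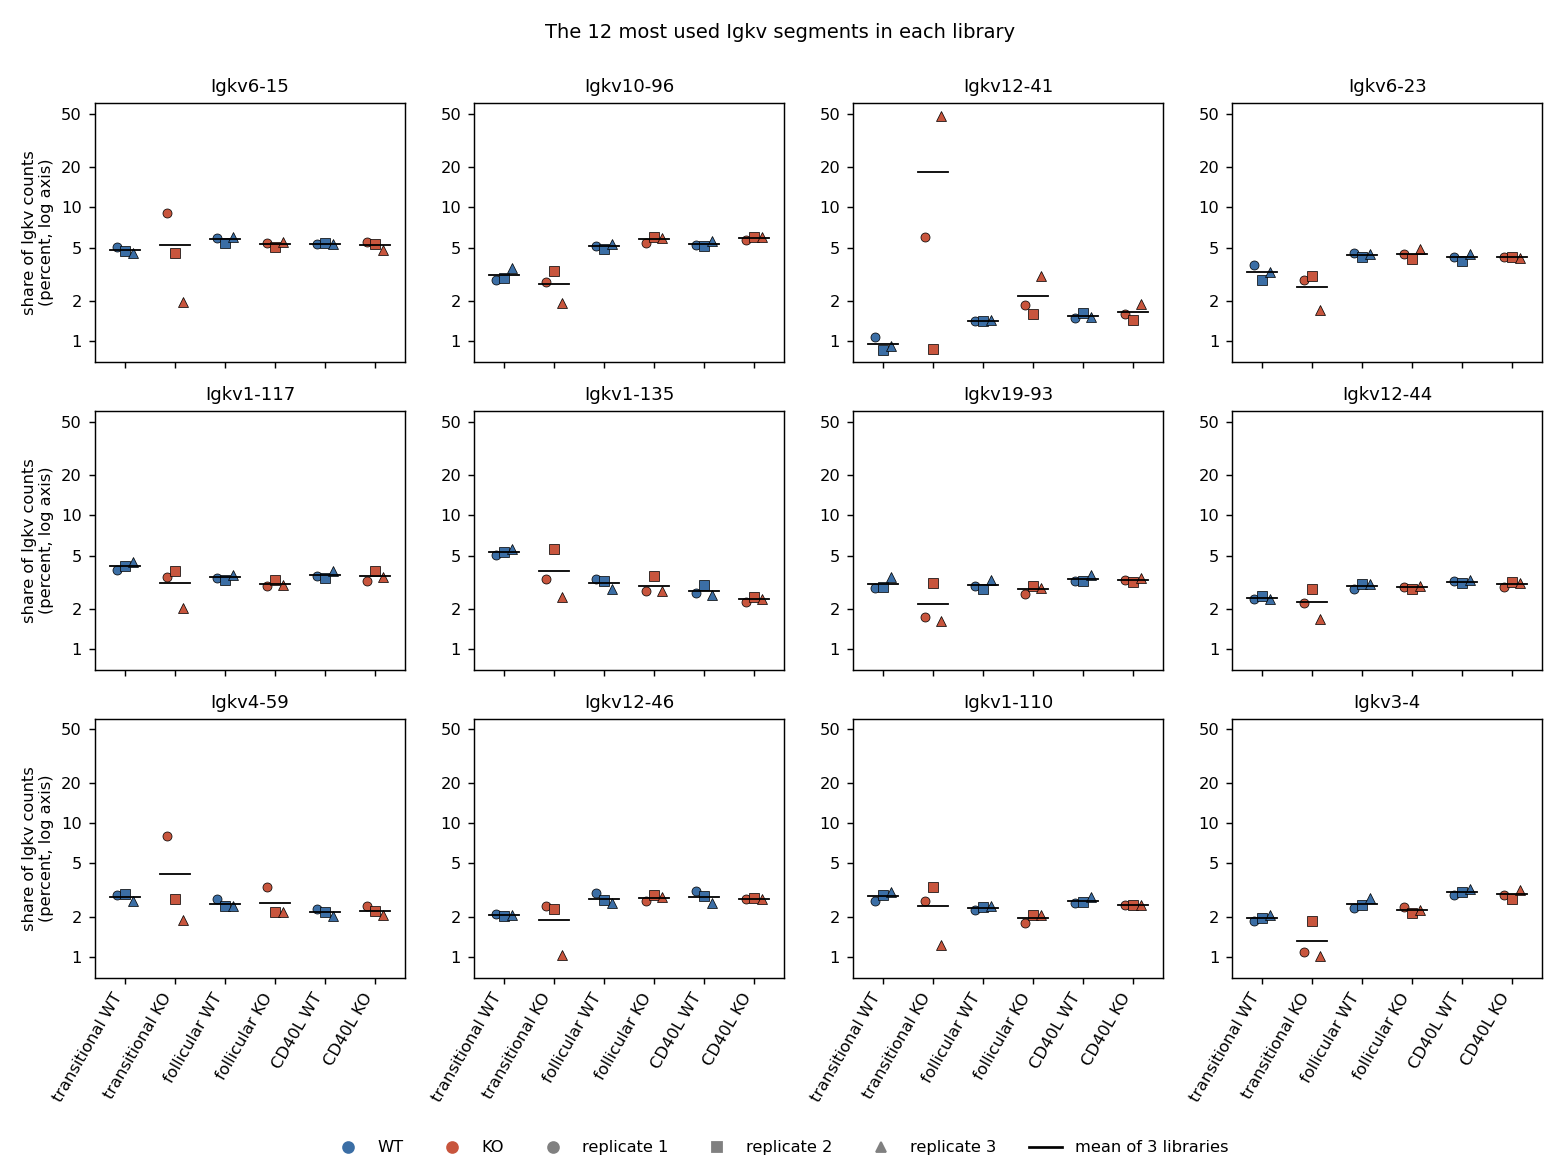
Share of each library's Igkv counts (percent, log axis) for the 12 segments with the highest mean share, 1 point per library and a line for the mean of the 3 libraries of each group (KO, Sh3gl1-/-). Igkv12-41 reached 48.4% in transitional Sh3gl1-/- replicate 3 and lay between 0.861% and 5.98% in the other 17 libraries.

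The effective number of segments, the count of equally used segments that would give the same Shannon entropy, summarises this breadth. It was 58.98, 61.2 and 60.04 in WT transitional libraries, 59.4, 60.4 and 58.3 in WT follicular libraries and 58.9, 59.1 and 57.6 in WT CD40L-treated libraries. In the Sh3gl1-/- groups it was 48.5, 60.2 and 16.4 in transitional, 60.6, 60.3 and 58.9 in follicular and 59.4, 58.7 and 58.8 in CD40L-treated libraries. Only transitional Sh3gl1-/- replicates 1 and 3 fell outside the range of 57.6 to 61.2 spanned by the other 16 libraries. The genotype difference in transitional cells, -18.4 segments, gave a two-sided exact permutation p of 0.3 (adjusted 0.525 over 35 tests), in a design of 3 against 3 whose smallest p is 0.1.

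**Figure D2:**
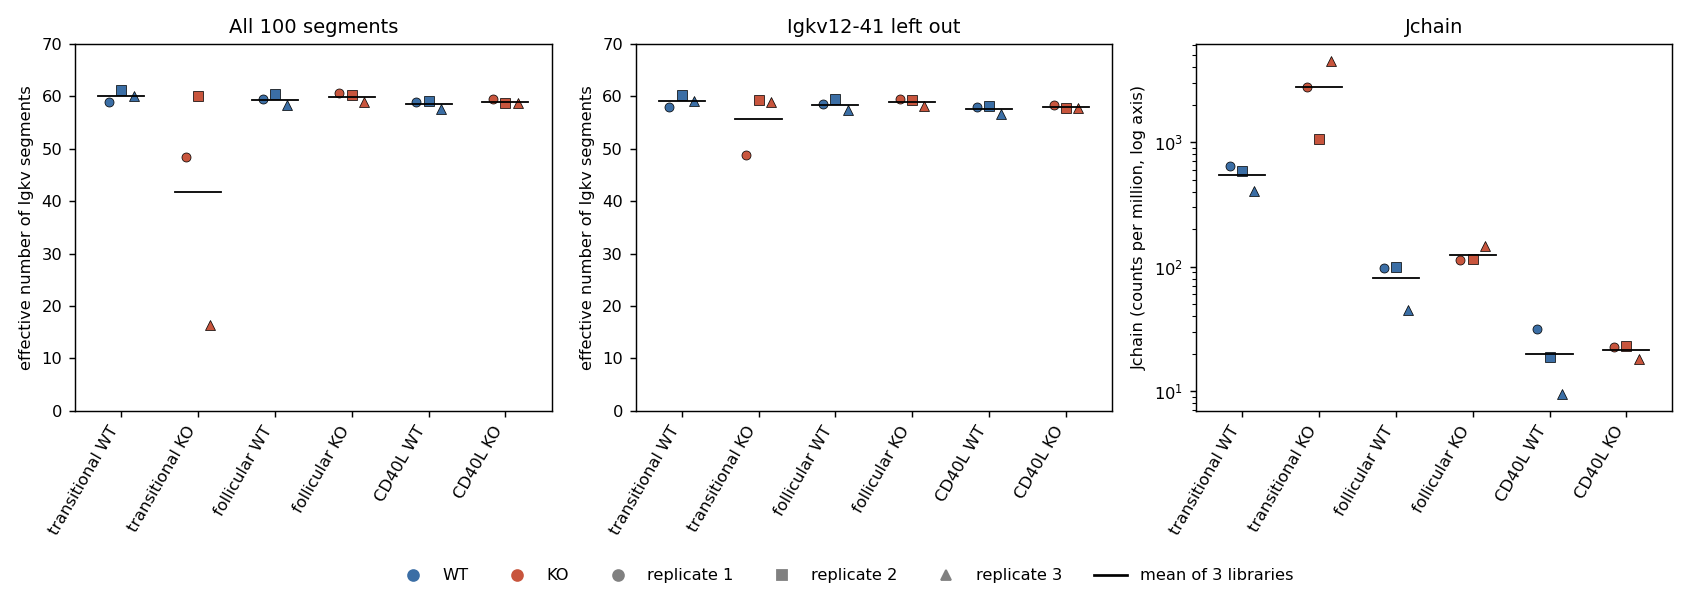
Effective number of Igkv segments per library, with all 100 segments and with Igkv12-41 left out, and Jchain in CPM on a log axis, 1 point per library with lines for the mean of 3 (KO, Sh3gl1-/-). Transitional Sh3gl1-/- replicate 3 lay at 16.4 with all segments and at 59.0 without Igkv12-41, while replicate 1 lay at 48.5 and 48.7.

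Igkv12-41, a segment of the Jk-proximal end of the locus on the strand opposite to Igkc, made up 48.4% of Igkv counts in transitional Sh3gl1-/- replicate 3 (84194 of 173807 counts, Wilson 95% interval 48.2% to 48.7%). Replicates 1 and 2 of that group stood at 5.98% and 0.875%, and the WT transitional libraries at 1.07%, 0.861% and 0.916%. Thus 2 of the 3 Sh3gl1-/- libraries were above every WT library and the remaining one lay within their range. The fitted log2 fold change was 5.20 with a standard error of 1.31 and did not pass the test (edgeR quasi-likelihood, Benjamini-Hochberg adjusted p = 0.0615). Replicate 3 held 84194 of the counts behind it and replicate 1 held 9338.

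Igkv12-41 was less uneven in the other states. Its share was 1.41%, 1.42% and 1.44% in WT follicular libraries and 1.86%, 1.58% and 3.05% in Sh3gl1-/- follicular libraries. All 3 Sh3gl1-/- libraries were above the WT libraries, and the highest was replicate 3, the number that also led in transitional cells. After CD40L the share was 1.498%, 1.61% and 1.51% in WT and 1.59%, 1.45% and 1.88% in Sh3gl1-/- libraries, and the genotypes overlapped. The genotype difference did not pass the test in follicular cells (log2 fold change 0.45, SE 0.24, adjusted p = 0.563) or after CD40L (-0.04, SE 0.13, adjusted p = 0.951). The nearest relatives Igkv12-44 and Igkv12-46 stood at 1.68% and 1.03% in the library dominated by Igkv12-41, where that segment filled 48.4% of the sum. With Igkv12-41 left out of the sum, Igkv12-44 stood there at 3.27%, within the 2.35% to 3.32% of the other 17 libraries, and Igkv12-46 at 1.998%, just under their 2.04% to 3.14%. On the library scale Igkv12-44 was at 210.3 CPM in that library, against 108 to 203 CPM in the others, and Igkv12-46 at 129 CPM, within their 93.5 to 218 CPM.

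Transitional Sh3gl1-/- replicate 1 departed through further segments beside Igkv12-41. Igkv6-15, the segment with the highest mean share of all, stood there at 9.08% (Wilson 95% interval 8.94% to 9.22%), against 4.59% to 5.02% in WT transitional libraries. Igkv4-59 stood at 7.94% (7.81% to 8.08%), against 2.62% to 2.93%. Igkv14-126 stood at 4.46% (4.36% to 4.57%), against 0.650% to 0.879%. In replicate 2 Igkv14-126 was also above WT, at 1.91%, as were Igkv14-111, at 2.65% (2.55% to 2.75%) against 0.960% to 1.28%, and Igkv5-39, at 1.19% against 0.485% to 0.633%. Igkv14-111 stood at 1.81% in follicular Sh3gl1-/- replicate 2, above the 1.08% to 1.32% of the other 5 follicular libraries. The segments above the WT range were thus partly shared, with Igkv14-126 in all 3 transitional Sh3gl1-/- libraries and Igkv12-41 in replicates 1 and 3. These segments were picked after their values were seen.

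The genotype comparison across the transitional libraries asked which segments differed between WT and Sh3gl1-/- cells. Of 97 segments that passed the filter on low counts, 3 were higher in Sh3gl1-/- and none lower by edgeR's quasi-likelihood test at an adjusted p under 0.05, against 3.73% of all genes tested. The 3 segments outside the test, Igkv1-131, Igkv1-35 and Igkv20-101-2, had too few counts. The median log2 fold change was 0.03 over the segments tested and 0.02 over all genes. An unadjusted p under 0.05 was reached by 25 segments, and DESeq2 called 6. The count was 0 without WT replicate 2 or without Sh3gl1-/- replicate 3, 1 without Sh3gl1-/- replicate 1, 5 without Sh3gl1-/- replicate 2, and 0 without Sh3gl1-/- replicates 1 and 3 together.

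Igkv14-126, known for its pairing with Ighv11-2 in B-1a cells that bind phosphatidylcholine, had the lowest adjusted p of the 3. Its share was 0.650%, 0.879% and 0.684% in WT and 4.46%, 1.91% and 1.94% in Sh3gl1-/- transitional libraries, so that every Sh3gl1-/- library was above every WT library. The log2 fold change on the library scale was 2.46 (SE 0.36, adjusted p = 0.0130). With replicates 1 and 3 left out it was 1.41 (adjusted p = 0.0669), and it ranged from 1.97 to 2.80 when single libraries were left out, with adjusted p-values of 0.0552 without WT replicate 2 and 0.0583 without Sh3gl1-/- replicate 3. In follicular libraries the share was 0.391%, 0.586% and 0.430% in WT and 0.932%, 0.436% and 1.11% in Sh3gl1-/-, which overlapped (log2 fold change 0.66, adjusted p = 0.4995). After CD40L it was 0.539%, 0.521% and 0.482% in WT and 0.853%, 0.606% and 0.854% in Sh3gl1-/-, which did not overlap but did not pass the test (0.44, adjusted p = 0.689).

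Igkv7-33, the sole member of its family, was rare. Its rounded counts were 12, 12 and 10 in WT and 53, 64 and 65 in Sh3gl1-/- transitional libraries, and the genotypes did not overlap (log2 fold change 2.23, SE 0.36, adjusted p = 0.0192). In follicular Sh3gl1-/- libraries its share was 0.0244%, 0.219% and 0.120%, with replicate 1 within the 0.0170% to 0.0255% of the WT libraries, and the difference of 2.28 had an SE of 0.62 (adjusted p = 0.153). Igkv12-44, the third segment called, rose by 0.37 on the library scale (SE 0.09, adjusted p = 0.0480). Its share was 2.38%, 2.48% and 2.37% in WT and 2.21%, 2.79% and 1.68% in Sh3gl1-/-, and with the summed Igkv counts as library size its log2 fold change was -0.11. With Igkv12-41 left out of the sum its share was 2.41%, 2.51% and 2.39% in WT and 2.35%, 2.82% and 3.27% in Sh3gl1-/-, which overlapped, and the log2 fold change was 0.21 (adjusted p = 0.653).

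**Figure D3:**
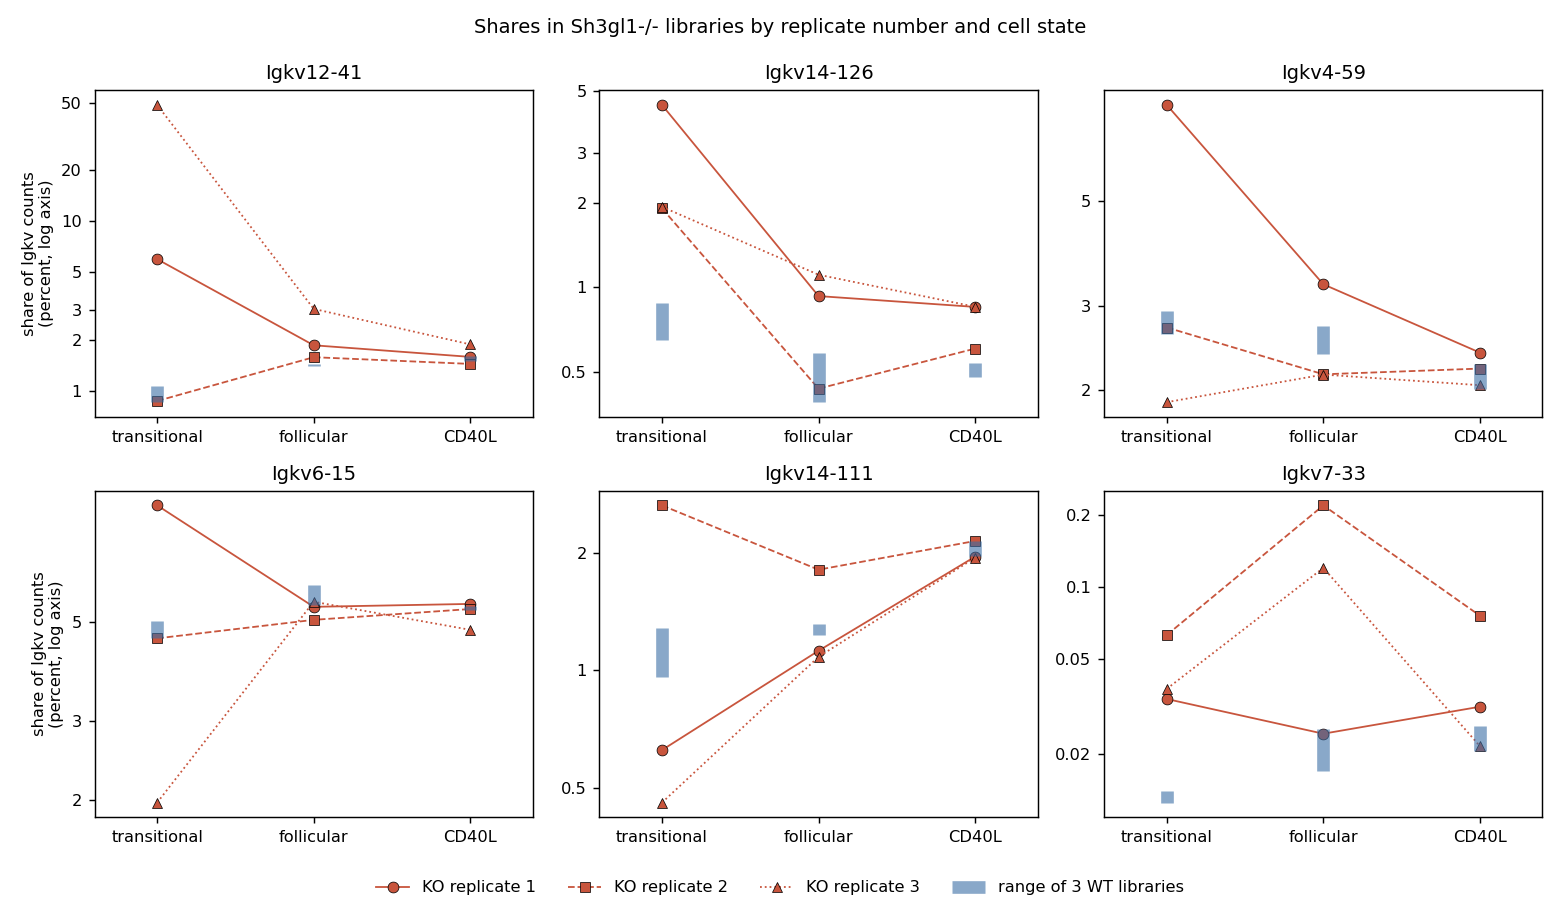
Share of Igkv counts (percent, log axis) of 6 segments in the Sh3gl1-/- (KO) libraries by cell state, with lines joining libraries of the same replicate number and bars for the range of the 3 WT libraries. Igkv14-126 reached 4.46%, 1.91% and 1.94% in the 3 transitional Sh3gl1-/- libraries and 0.650% to 0.879% in the WT libraries.

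Jchain, a gene of antibody-secreting cells, was higher in the transitional Sh3gl1-/- libraries. The gene, which encodes the chain that joins secreted IgM or IgA, had 47350, 16702 and 62858 counts in transitional Sh3gl1-/- replicates 1, 2 and 3, against 9493, 7854 and 5146 in WT, at most 2028 in follicular and at most 460 in CD40L-treated libraries. The plasma cell list of Sdc1, Prdm1, Xbp1, Jchain and Irf4 summed to 511 to 735 CPM in WT and 1168 to 4636 CPM in Sh3gl1-/- transitional libraries, where 1 of its 5 genes, Jchain, was called higher and made up most of the sum. None of the 5 was at 0 there. Sdc1, which defines plasma cells as CD138, had 35, 45 and 31 counts in WT and 50, 18 and 60 in Sh3gl1-/-, and Prdm1 had 11, 15 and 8 against 23, 6 and 22, so that replicate 2 was below every WT library in both. Xbp1 was at 17.3, 15.4 and 19.2 CPM in WT and at 30.5, 18.7 and 42.9 CPM in Sh3gl1-/-. Its replicates 1 and 3 were thus above every WT transitional library and replicate 2 was within their range. Irf4, a factor that plasma cells share with activated B cells, was at 68.0, 80.3 and 82.9 CPM in WT and 62.6, 79.8 and 73.0 CPM in Sh3gl1-/-, which overlapped. The part of such cells in the segment differences was not tested.

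Other lists were measured beside them. The B-1 list of Cd5, Zbtb32, Bhlhe41 and Spn summed to 91.5 to 137 CPM in WT and 80.9 to 125 CPM in Sh3gl1-/- transitional libraries, with 0 of 4 genes called. Neutrophil markers summed to 49.4 to 89.7 CPM in WT and 108 to 542 CPM in Sh3gl1-/-, and erythroid markers to 1275 to 2205 CPM and 2464 to 5290 CPM. T cell markers summed to 31.7 to 51.8 CPM in WT and 54.7 to 82.2 CPM in Sh3gl1-/-, and macrophage markers to 377 to 472 CPM and 327 to 583 CPM. Marginal zone markers summed to 328 to 352 CPM and 195 to 239 CPM, germinal centre markers to 39.4 to 45.9 CPM and 28.9 to 46.0 CPM, and pan-B markers to 14290 to 16790 CPM and 11140 to 14630 CPM. On the heavy chain, Ighv11-2 held 0.774%, 1.39% and 0.662% of Ighv counts in WT and 9.13%, 2.87% and 3.51% in Sh3gl1-/- transitional libraries. Ighv1-26 held 35.4% in transitional Sh3gl1-/- replicate 3 and 3.84% to 5.83% elsewhere. These heavy-chain segments were chosen after their values were seen. Of the joining segments, Igkj2 had 83 counts in that library and 5 to 23 in the other 17.

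Igkv segments took a larger part of all RNA in transitional Sh3gl1-/- cells and a smaller part in follicular Sh3gl1-/- cells than in WT. They held 0.644%, 0.641% and 0.642% of library counts in WT and 0.945%, 0.667% and 1.28% in Sh3gl1-/- transitional libraries. In follicular libraries they held 0.533%, 0.520% and 0.503% in WT and 0.444%, 0.405% and 0.487% in Sh3gl1-/-. The genotypes did not overlap in either state, each with the smallest p that 3 against 3 allows (exact two-sided permutation p = 0.1, adjusted 0.269). Without Igkv12-41 the transitional Sh3gl1-/- values were 0.888%, 0.661% and 0.657%, still above the 0.635% to 0.637% of WT. The transitional difference of 0.320 points was 0.0992 points without Igkv12-41, 0.163 points without Sh3gl1-/- replicate 3 and 0.0241 points without replicates 1 and 3. After CD40L they were 0.451%, 0.377% and 0.345% in WT and 0.363%, 0.415% and 0.340% in Sh3gl1-/-, which overlapped.

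In follicular cells no segment differed by genotype at an adjusted p under 0.05 (edgeR quasi-likelihood, 0 of 97 tested, against 0.845% of all genes), 27 reached an unadjusted p under 0.05 and DESeq2 called 9, of which 8 were lower. The segments leaned lower as a group, since 16 of 97 had a positive log2 fold change and their median was -0.17, against -0.00 for all genes. With the summed Igkv counts as library size the median was 0.02 and 8 segments reached an unadjusted p under 0.05. After CD40L, 0 of 96 segments were called by edgeR, against 0.0227% of all genes, 4 reached an unadjusted p under 0.05, and DESeq2 called 0. The low segment Igkv8-26 was outside that test as well. Follicular Sh3gl1-/- libraries also had neutrophil markers at 166 to 775 CPM and erythroid markers at 1683 to 5208 CPM, against 56.4 to 173 CPM and 793 to 2130 CPM in WT, and their part was not tested.

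Distances between whole profiles gave the same order of spread. The Bray-Curtis distance, the percentage of Igkv usage by which 2 libraries differ, was 5.16% to 8.69% among WT transitional and 21.9% to 47.6% among Sh3gl1-/- transitional libraries. Leaving out Igkv12-41 brought the latter to 9.69% to 19.1%. It was 3.70% to 4.58% among WT follicular, 5.64% to 7.27% among Sh3gl1-/- follicular, 3.72% to 5.002% among WT CD40L-treated and 4.22% to 4.46% among Sh3gl1-/- CD40L-treated libraries. Between genotypes it was 7.41% to 48.9% in transitional, 5.66% to 6.73% in follicular and 3.62% to 5.25% in CD40L-treated cells. The transitional and CD40L distances between genotypes overlapped those within WT and those within Sh3gl1-/- libraries. The follicular distances between genotypes were all above those within WT and overlapped those within Sh3gl1-/- libraries. The genotype separation gave the smallest p that 3 against 3 allows in each state (one-sided exact permutation p = 0.1, adjusted 0.269), so it could not pass the threshold in this design. In transitional cells the separation ranged from -0.0368 to 0.195 as a fraction when single libraries were left out.

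The step from transitional to follicular cells asked how segment use differs between immature and mature cells. In WT cells 31 of 97 segments changed, 1 higher and 30 lower, against 25.9% of all genes. In Sh3gl1-/- cells 48 changed, all of them lower, against 10.4% of all genes, and without transitional Sh3gl1-/- replicates 1 and 3 the count was 31. The median log2 fold change was -0.35 in WT and -0.66 in Sh3gl1-/- cells, against 0.03 and -0.00 over all genes, so the segments together took a smaller part of follicular RNA. Igkv percent of library counts was 0.320 points lower in follicular than in transitional cells (exact permutation within genotype, p = 0.005, the smallest it can give, adjusted 0.07) and 0.212 points lower without Igkv12-41 (adjusted p = 0.035). The lower adjusted p came from more of the 35 tests reaching the smallest p, in a setting chosen after seeing the data. The permutation within genotype, used for all state measures, did not use the replicate numbers, which were taken to pair these libraries within a genotype.

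Segments at the Jk-distal end were among those with the lowest adjusted p. Igkv2-137, the most Jk-distal of the segments with a mean share of at least 1%, lies 3166 kb from Jk1. Its share was 2.75%, 2.27% and 2.33% in WT transitional and 1.29%, 1.40% and 1.46% in WT follicular libraries, which did not overlap (log2 fold change -1.17, SE 0.10, adjusted p = 7.6e-06). In Sh3gl1-/- cells it was 1.81%, 2.31% and 1.03% in transitional and 1.41%, 1.55% and 1.31% in follicular libraries, which overlapped as shares through replicate 3, while the log2 fold change on the library scale was -1.27 (SE 0.10, adjusted p = 8.8e-06). Igkv1-135, also at the distal end, had shares of 5.04%, 5.31% and 5.59% in WT transitional and 3.32%, 3.22% and 2.79% in WT follicular libraries (-1.11, SE 0.10, adjusted p = 9.4e-06) and fell by 1.34 on the log2 scale in Sh3gl1-/- cells (SE 0.10, adjusted p = 5.1e-06). Igkv8-28, from family 8, had shares of 1.56%, 1.34% and 1.35% against 0.789%, 0.791% and 0.757% in WT cells (-1.20, SE 0.12, adjusted p = 1.7e-05).

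Lower segments were spread unevenly over the families. Of all genes, 25.9% in WT and 10.4% in Sh3gl1-/- cells were called in either direction. In WT cells 6 of 8 tested members of family 1, 3 of 3 of family 2 and 6 of 10 of family 8 were lower, with family medians of -0.71, -0.91 and -0.85 on the log2 scale. Family 4, the most numerous with 26 members, had 6 lower and a median of -0.33, and families 6 and 12 had medians of 0.07 and 0.02. Among Sh3gl1-/- cells 5 of 8, 3 of 3 and 7 of 10 members of families 1, 2 and 8 were lower, and 14 of 26 of family 4. Igkv8-24 and Igkv8-27 fell by 0.95 and 0.97 on the log2 scale in WT cells, and Igkv8-24, Igkv1-117 and Igkv2-109 fell by 1.05, 1.04 and 1.11 in Sh3gl1-/- cells, all past the test.

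The only segment that rose in WT cells on this scale was Igkv10-96, which was the second most used of all. Its share was 2.87%, 2.97% and 3.51% in WT transitional and 5.14%, 4.86% and 5.35% in WT follicular libraries (log2 fold change 0.37, SE 0.10, adjusted p = 0.0149). The share in Sh3gl1-/- cells was 2.77%, 3.34% and 1.94% in transitional and 5.43%, 6.00% and 5.92% in follicular libraries, yet its level on the library scale differed by 0.08 (adjusted p = 0.696). All 6 follicular libraries were above all 6 transitional ones in share, and it stayed at 5.16% to 6.04% after CD40L.

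**Figure D4:**
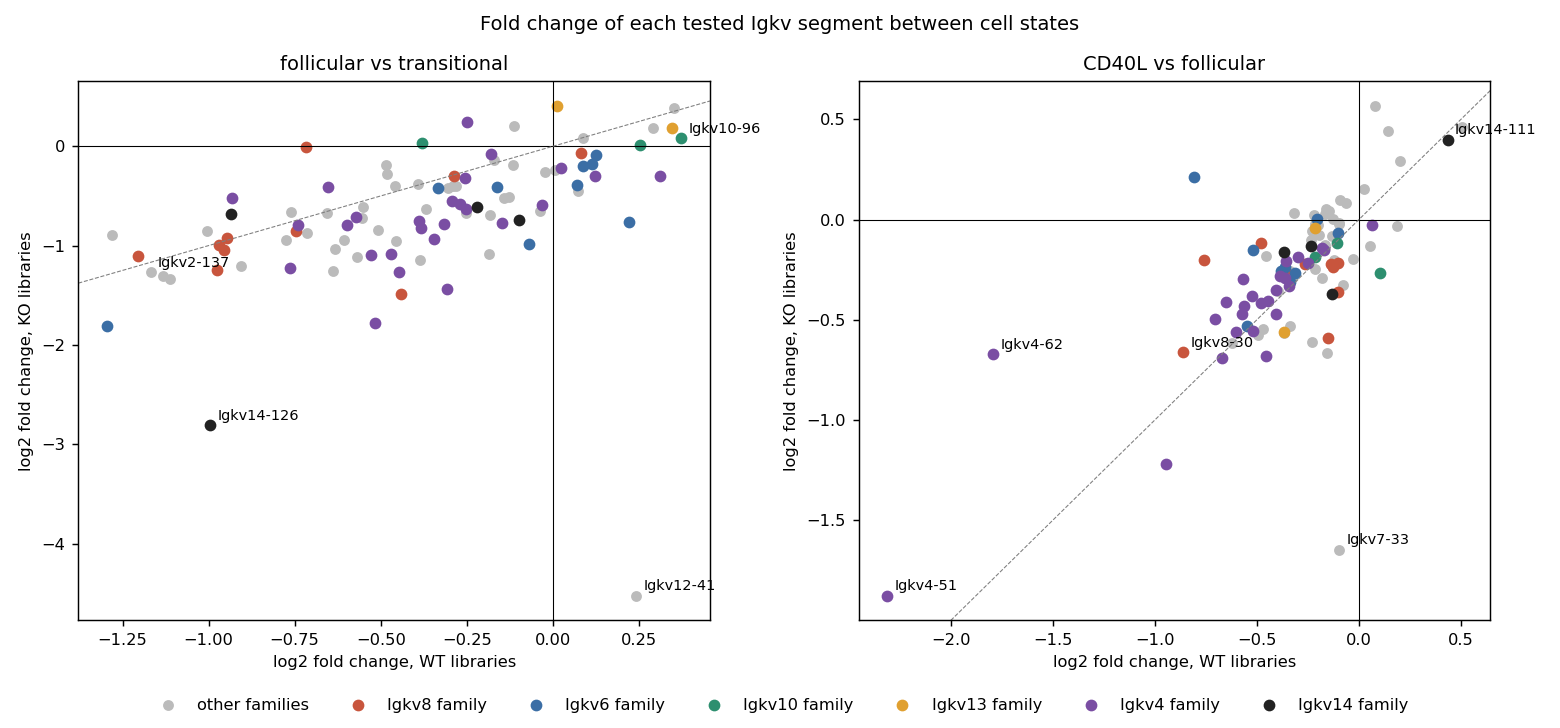
Log2 fold change of each tested segment in WT (horizontal axis) and Sh3gl1-/- libraries (KO, vertical axis), for follicular against transitional and CD40L-treated against follicular cells, coloured by family, with a dashed line of equal change. Medians in WT and Sh3gl1-/- cells were -0.35 and -0.66 for follicular against transitional cells and -0.24 and -0.22 for CD40L-treated against follicular cells.

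The direction of these counts depended on the scale. With the summed Igkv counts as library size, which compares segments within the kappa repertoire, 6 segments changed in WT cells, 2 higher and 4 lower, against 17.9% of all genes, and 32 in Sh3gl1-/- cells, 30 higher and 2 lower, against 72%. That scale moved the median of all genes to 0.37 and 1.02 on the log2 scale, and in Sh3gl1-/- cells it was set in large part by Igkv12-41. With Igkv12-41 left out of the sum, an alternative chosen after seeing the data, 23 segments changed in WT cells, 11 higher and 12 lower, against 33.2% of all genes, and 31 in Sh3gl1-/- cells, 19 higher and 12 lower, against 63.3%. The median of all genes was then 0.38 and 0.73, and that of the segments 0.00 and 0.07.

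On this last scale 33.2% of all genes in WT and 63.3% in Sh3gl1-/- cells were called in either direction, and the overlap of those calls was not counted. Of the segments, 15 were called in the same direction in both genotypes, which is 65.2% of the WT and 48.4% of the Sh3gl1-/- calls. Higher in follicular cells were Igkv10-94, Igkv10-96, Igkv13-84, Igkv4-51, Igkv4-72, Igkv6-13, Igkv6-23, Igkv6-25, Igkv6-32 and Igkv8-21. Lower were Igkv1-122, Igkv1-135, Igkv2-137, Igkv6-29 and Igkv8-30. Igkv10-96 rose by 0.72 in WT (adjusted p = 0.00102) and by 0.82 in Sh3gl1-/- cells (adjusted p = 1.5e-04). Igkv2-137 fell by 0.82 (adjusted p = 5.1e-04) and by 0.52 (adjusted p = 0.00451). By family the WT calls comprised 4 higher and 1 lower in family 6, 2 higher in family 10, 3 lower in family 1 and 5 lower and 1 higher in family 8.

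Position along the locus was then compared. The stretch from the first to the last segment was divided into 3 parts of equal length, with 42 Jk-proximal, 32 middle and 26 Jk-distal segments. The distal part held 26.7%, 28.0% and 29.1% of Igkv counts in WT transitional and 22.6%, 22.9% and 22.7% in WT follicular libraries, and the groups did not overlap. In Sh3gl1-/- cells it held 24.9%, 30.2% and 14.2% in transitional and 21.6%, 22.6% and 20.7% in follicular libraries, with replicate 3 the exception. The proximal part held 46.5%, 45.2% and 43.3% in WT and 45.2%, 42.9% and 70.3% in Sh3gl1-/- transitional libraries, and 45.8% to 48.7% in the 6 follicular libraries.

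The proximal share did not differ between states with all segments (-1.83 points, exact permutation p = 1) and was 2.79 points higher in follicular cells without Igkv12-41 (p = 0.005, adjusted 0.035). The median log2 fold change from transitional to follicular WT cells was -0.59 over 24 distal, -0.31 over 32 middle and -0.25 over 41 proximal segments tested. The most Jk-proximal segment with a mean share of at least 1%, Igkv3-2 at 23.5 kb from Jk1, had 1.94%, 2.195% and 2.10% in WT transitional and 1.91%, 1.93% and 1.92% in WT follicular libraries (log2 fold change -0.46, SE 0.23, adjusted p = 0.166), and fell by 0.96 in Sh3gl1-/- cells (adjusted p = 0.0158).

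**Figure D5:**
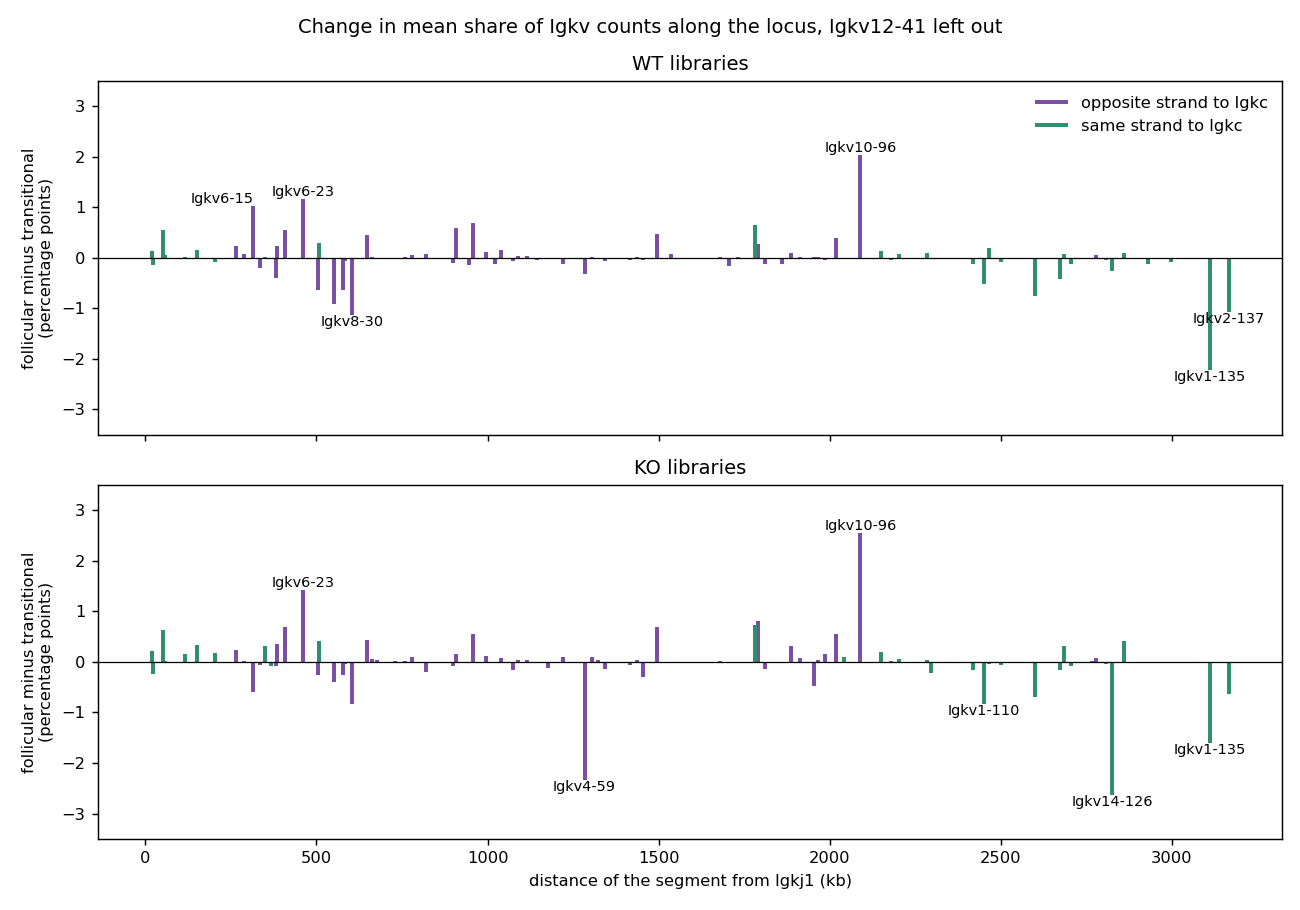
Follicular minus transitional mean share of Igkv counts (percentage points, Igkv12-41 left out) of each segment against its distance from Jk1 in kb, for WT (above) and Sh3gl1-/- (KO, below) libraries, coloured by strand relative to Igkc. Igkv10-96 pointed up and Igkv1-135 down in both genotypes, while Igkv14-126 and Igkv4-59, which stood at 4.46% and 7.94% in transitional Sh3gl1-/- replicate 1, pointed far down only below.

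In WT cells the profiles of the 2 states stood further apart than libraries within them. The distance between WT transitional and WT follicular libraries was 11.1% to 15.6%, above the 3.70% to 8.69% within these groups. In Sh3gl1-/- cells it was 14.1% to 48.4%, which overlapped the 21.9% to 47.6% among transitional libraries, and without Igkv12-41 it was 14.0% to 22.3% against 9.69% to 19.1%. Over both genotypes the state separation, the mean distance between states minus that within them, was 0.0683 as a fraction (one-sided exact permutation p = 0.01, adjusted 0.07) and 0.0671 without Igkv12-41 (adjusted p = 0.0437). Segments on the strand opposite to Igkc held 59.0% to 63.0% of Igkv counts in WT transitional and 63.8% to 64.8% in WT follicular libraries, without overlap. In Sh3gl1-/- cells they held 66.7%, 59.5% and 79.8% in transitional and 65.4% to 65.8% in follicular libraries, so that 2 transitional libraries were above every follicular one and 1 was below. The state difference was 0.307 points with all segments (adjusted p = 1) and 3.43 points without Igkv12-41 (adjusted p = 0.035).

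Lambda variable segments, which a cell turns to when kappa rearrangement fails or is edited, were measured beside kappa. Iglv1, Iglv2 and Iglv3 together held 26.6%, 24.0% and 19.2% of the variable light-chain counts in WT transitional and 12.98%, 13.7% and 10.8% in WT follicular libraries, which did not overlap. The Sh3gl1-/- values were 16.7%, 21.4% and 10.2% in transitional and 12.7%, 16.2% and 11.7% in follicular libraries, which overlapped. The state difference was -6.67 points (exact permutation p = 0.035, adjusted 0.204) and -8.03 points without Igkv12-41 (adjusted p = 0.035). On the library scale Iglv1 fell by 1.54 on the log2 scale in WT (adjusted p = 3.7e-05) and by 1.44 in Sh3gl1-/- cells (adjusted p = 1.0e-04).

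Of the 26 genes listed for the light-chain loci, recombination and receptor assembly, 20 were tested in this step. In WT cells 2 were higher and 10 lower, and in Sh3gl1-/- cells 1 was higher and 11 lower. Of all genes, 25.9% and 10.4% were called in either direction. Rag1, a subunit of the recombinase, had 8 to 51 counts in WT and 3 to 36 in Sh3gl1-/- transitional libraries and 0 in all follicular libraries. Ighm, the IgM heavy-chain constant gene, fell by 1.11 on the log2 scale in WT and by 1.51 in Sh3gl1-/- cells. Igkc fell by 0.998 in Sh3gl1-/- cells (adjusted p = 9.6e-04). The higher genes in WT cells were Ighd, the IgD constant gene, at 0.57, and Pou2f2, which encodes the octamer-binding factor Oct-2, at 0.29. Of the same list 1 gene was higher in Sh3gl1-/- than in WT cells in transitional and in follicular cells, Ighd in both, and none after CD40L. The shares of all genes called in these comparisons were 3.73%, 0.845% and 0.0227%. Follicular libraries also had less of the plasma cell list, at 128 to 203 CPM in WT and 202 to 230 CPM in Sh3gl1-/-, against 511 to 735 CPM in WT transitional libraries. In each genotype 1 of its 5 genes was called lower and 0 higher. Jchain was at 406 to 647 CPM in WT transitional and 44.6 to 99.9 CPM in WT follicular libraries. Between the same groups Xbp1 went from 15.4 to 19.2 CPM to 17.8 to 23.6 CPM, and Irf4 from 68.0 to 82.9 CPM to 60.6 to 74.7 CPM. The part of this list in the segment changes was not tested.

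Whether the transitional-to-follicular change differed by genotype was tested as an interaction. No segment passed (edgeR quasi-likelihood, 0 of 97, against 0.0686% of all genes), 20 reached an unadjusted p under 0.05 and DESeq2 called 2. With the replicate number as a block within each genotype, 2 segments were called.

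The last comparison was of follicular cells after CD40L with untreated follicular cells. The profiles of these groups were 5.15% to 8.36% apart in WT and 6.21% to 8.30% in Sh3gl1-/- cells. In WT cells 26 of 97 segments changed, 1 higher and 25 lower, and in Sh3gl1-/- cells 17 changed, all lower, against 49.3% and 42.4% of all genes. The medians were -0.24 and -0.22, against -0.08 and -0.03 over all genes. With the summed Igkv counts as library size 8 segments changed in each genotype, 2 higher and 6 lower in WT and 4 higher and 4 lower in Sh3gl1-/- cells, against 46.4% and 40.6% of all genes, with the median of all genes at 0.20 and 0.19. Single libraries mattered to these counts. The WT count was 14, 10 and 13 without WT follicular replicates 1, 2 and 3 and 12 and 11 without WT CD40L-treated replicates 2 and 3, and the Sh3gl1-/- count was 11 and 8 without Sh3gl1-/- follicular replicates 1 and 3 and 8 without Sh3gl1-/- CD40L-treated replicate 3. The difference of the CD40L effect between genotypes was called for 0 of 97 segments by edgeR, against 0% of all genes, with 1 at an unadjusted p under 0.05 and 0 by DESeq2.

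Igkv4-51 fell most clearly. Its share was 0.403%, 0.444% and 0.397% in WT follicular and 0.286%, 0.331% and 0.295% in Sh3gl1-/- follicular libraries, and it lay between 0.0919% and 0.104% in all 6 CD40L-treated libraries, well apart from both. The counts behind these shares were 317, 358 and 258 in WT follicular and 165, 206 and 200 in Sh3gl1-/- follicular libraries, and 48 to 69 after CD40L. The log2 fold change was -2.31 in WT (SE 0.18, adjusted p = 2.1e-07) and -1.88 in Sh3gl1-/- cells (SE 0.18, adjusted p = 1.9e-06), and -2.04 and -1.66 with the summed Igkv counts as library size. Its nearest relative, Igkv4-58, is 96.1% identical, so the split of reads between them is uncertain.

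Other members of family 4 were lower too. Of its 26 segments 15 were lower in WT and 10 in Sh3gl1-/- cells, with medians of -0.47 and -0.41. Of all genes, 49.3% in WT and 42.4% in Sh3gl1-/- cells were called in either direction. Igkv4-62 fell by 1.79 in WT cells (SE 0.32, adjusted p = 3.7e-04) on 39 to 50 counts before and 12 to 16 after CD40L. Igkv4-57 fell by 0.56 in WT and by 0.43 in Sh3gl1-/- cells, Igkv4-50 by 0.65 in WT and Igkv4-55 by 0.68 in Sh3gl1-/- cells, all past the test. Family 4 together held 17.3% to 18.1% of Igkv counts in WT follicular and 14.6% to 15.9% in WT CD40L-treated libraries, and 17.3% to 20.5% and 15.5% to 16.5% in Sh3gl1-/- libraries, without overlap in either genotype.

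Segments of other families moved as well. Igkv8-30 had 2.17%, 2.12% and 1.86% in WT follicular and 1.40%, 1.41% and 1.27% in WT CD40L-treated libraries (log2 fold change -0.86, SE 0.16, adjusted p = 4.3e-04), and fell by 0.66 in Sh3gl1-/- cells (adjusted p = 0.00379). Igkv1-135 fell by 0.54 in Sh3gl1-/- cells (adjusted p = 0.00421). Igkv14-111 was the single segment that rose, at 1.32%, 1.25% and 1.23% before and 2.15%, 1.97% and 2.07% after CD40L in WT cells (0.44, SE 0.16, adjusted p = 0.0330). In Sh3gl1-/- cells it had 1.12%, 1.81% and 1.08% before and 1.96%, 2.15% and 1.94% after, without overlap (0.40, adjusted p = 0.0563). With the summed Igkv counts as library size 4 segments were called in both genotypes, 50% of each list, with Igkv14-111 and Igkv5-45 higher and Igkv4-51 and Igkv8-30 lower. On that scale 46.4% of all genes in WT and 40.6% in Sh3gl1-/- cells were called, and the overlap of those calls was not counted.

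Segments on the strand opposite to Igkc held less after CD40L. They held 63.8% to 64.8% in WT follicular and 65.4% to 65.8% in Sh3gl1-/- follicular libraries, against 61.7% to 62.2% and 61.9% to 62.6% after CD40L, without overlap in either genotype. The difference was -2.86 points (exact permutation within genotype, p = 0.005, the smallest it can give, adjusted 0.07). All 26 segments of family 4 lie on that strand, and 23 of 60 opposite-strand segments were lower in WT cells, against 2 of 37 on the strand of Igkc. In that comparison 49.3% of all genes were called in either direction. Igkv percent of library counts was 0.1003 points lower after CD40L (exact permutation p = 0.01, adjusted 0.07), and the profile separation was 0.0202 as a fraction (one-sided exact permutation p = 0.01, adjusted 0.07). The summed Igkv counts per Igkc count were 0.631 to 0.637 in transitional, 0.583 to 0.604 in follicular and 0.545 to 0.580 in CD40L-treated libraries.

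Of the same list of 26 genes, 18 were tested after CD40L and 10 were lower in each genotype, with none higher. Of all genes, 49.3% in WT and 42.4% in Sh3gl1-/- cells were called in either direction. Among the lower listed genes Ighd fell by 1.46 in WT and by 1.43 in Sh3gl1-/- cells. Vpreb3, a chaperone of the early receptor, fell by 4.31 and 5.20, and Cd79b, a signalling subunit of the receptor, by 1.04 and 1.12. Pou2af1, which encodes the octamer coactivator OCA-B, fell by 0.88 and 0.70. The plasma cell list stood at 240 to 284 CPM in the CD40L-treated libraries, where Sdc1 was at 0 in 2 libraries and at most 5 counts in the others. Most of this sum was Irf4, which activated B cells share, at 169 to 234 CPM. Jchain was at 9.45 to 31.6 CPM there.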

How the data were processed

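Poly(A) RNA libraries of sorted B cells were made by the authors, as stranded libraries per the labels. The study's text names another library kit and other quantification tools, and the labels and the deposited table were followed. According to the submitters' processing notes, the tools were cutadapt 1.9.1, STAR 2.5.2a and RSEM 1.3.0, with genome build GRCm38. The authors deposited 1 table of RSEM expected counts, TPM and FPKM per gene, and 0 columns were left out of the mapping to samples. Deposited expected counts were rounded to whole numbers for tests. Deposited TPM served as an alternative, and deposited FPKM was not used. RSEM divides a read that fits several segments between them, so values of near-identical segments depend on its model.

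Gene types and coordinates came from GENCODE M21 (GRCm38), and the sequences were read from its transcripts. Tests across genes were run in R 4.3.3 with edgeR 4.0.16 (TMM, filterByExpr, quasi-likelihood F test) on the whole table, with Benjamini-Hochberg adjustment over all genes tested and a threshold of 0.05. State comparisons used 12 libraries with 1 coefficient per group. DESeq2 1.42.0 was an alternative, and limma 3.58.1 was loaded by edgeR. The script recovered known fold changes when tested on simulated data. Summary measures were compared with exact permutation tests over libraries in Python 3.11.15 with scipy 1.17.1, adjusted over 35 tests. These permutations did not keep libraries of the same replicate number together, so their p-values do not allow for pairing between states. Intervals are Wilson 95% intervals, and these and the floors of 3 counts cover counting error only. Identities come from global alignments with Biopython 1.88.

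The segments named are the 12 with the highest mean share, up to 5 per direction in each comparison by adjusted p, and the most Jk-proximal and most Jk-distal segment with a mean share of at least 1%. The segments and marker lists were chosen with earlier results of these data known. The replicate number was checked as a pairing. Deviations from group means correlated by 0.103 to 0.242 over all genes between transitional and follicular WT libraries of the same number and by 0.115 to 0.263 in Sh3gl1-/- libraries, so the numbers were taken to pair these libraries within a genotype. The values between follicular and CD40L-treated libraries were 0.136 to 0.224 in WT, which were taken as paired too. They were 0.0302 to 0.119 in Sh3gl1-/- cells, which were not, since a limit of 0.1 over all genes was used. On Igkv shares the values between follicular and CD40L-treated libraries were 0.0205 to 0.254 in WT and 0.221 to 0.455 in Sh3gl1-/- cells. Between genotypes none of the 3 states had all values over all genes above 0.1. The labels give biological replicates from littermates without tying libraries to single mice.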

Additional observations from a re-analysis of the deposited data

Results flagged for a closer look

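The genotype difference in Igkv percent of library counts pointed opposite ways in the ex vivo states. It was 0.320 points (Sh3gl1-/- minus WT) in transitional and -0.0734 points in follicular libraries, with no overlap of the genotypes in either. The result is given here because of this pattern. The difference between these differences was -0.393 points (exact permutation of genotype labels within state, p = 0.005, the smallest it can give, adjusted 0.06 over 12 such tests). Opposite differences without overlap give this smallest p by construction, so the p adds no support to the pattern. The permutation also shuffled each state separately, though replicate numbers were taken to pair these libraries within a genotype. Without Igkv12-41 the transitional difference was 0.0992 points and the difference between the differences -0.175 points (exact permutation p = 0.005). Without transitional Sh3gl1-/- replicate 3 these were 0.163 and -0.237 points (exact permutation p = 0.005), and without replicates 1 and 3 they were 0.0241 and -0.0975 points. The p-values of these settings follow from the same lack of overlap. The settings without Igkv12-41 and without both libraries were chosen after seeing the data. Jchain stood above WT in all 3 transitional Sh3gl1-/- libraries, and its part was not tested.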

How the results depend on the processing

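Segment counts past the threshold varied with the fit. In transitional cells 3 segments differed by genotype, against 6 with DESeq2, 16 with all genes kept, 6 with the Igkv sum without Igkv12-41 as library size and 0 without Sh3gl1-/- replicates 1 and 3. In follicular cells the 0 became 9 with DESeq2 and 11 with all genes kept. The 31 segments called between follicular and transitional WT cells were 6 on the summed Igkv scale, and the 48 in Sh3gl1-/- cells were 31 both without those libraries and on the scale without Igkv12-41. The ex vivo interaction gave 2 with DESeq2 and 12 with all genes kept. The 26 and 17 segments called after CD40L were 8 and 8 on the summed Igkv scale and 9 and 8 without Igkv12-41. Igkv12-44 turned to -0.11 on the summed Igkv scale. Settings that leave out Igkv12-41 or the libraries with the most Jchain were chosen after seeing the data, and causes were not tested.

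With the replicate number as a block, the genotype comparison called 0 segments in transitional and 1 in follicular cells, where numbers do not pair the genotypes. Igkv14-126, Igkv7-33 and Igkv12-44 were then no longer called (adjusted p = 0.0539, 0.0618 and 0.108). Blocking within genotype, a setting added after seeing the data, gave 2 for the ex vivo interaction, and 39 and 53 for the follicular comparison and 23 and 15 for CD40L in WT and Sh3gl1-/- cells, and no other count moved by more than 1.5 times.

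Leaving out single libraries gave 0 to 5 segments for the genotype comparison in transitional and 0 to 1 in follicular cells, 0 to 1 for the ex vivo interaction, and 10 to 36 and 8 to 20 after CD40L in WT and Sh3gl1-/- cells. The directions of small differences turned with it. Sh3gl1-/- minus WT ranged in transitional cells from -0.969 to 12.7 points for the Jk-proximal part and from -0.0368 to 0.195 for the profile separation. In follicular cells it ranged from -0.0226 to 1.06 for the effective number, from -0.212 to 0.666 points for the 10 most used segments and from -0.266 to 1.97 points for Iglv. After CD40L it ranged from -0.0414 to 0.0119 for Igkv percent, from -0.00816 to 0.741 for the effective number, from -0.336 to 0.115 for the 10 most used and from -1.19 to 0.865 for Iglv. Follicular minus transitional ranged from -7.96 to 0.169 for the 10 most used, from -4.30 to 2.55 for the proximal part and from -1.99 to 3.08 for the opposite strand. CD40L minus follicular ranged from -0.294 to 0.417 for the proximal part and from -0.295 to 0.824 for Iglv.

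Other settings turned measures that had not passed the test. With only the segments of mostly whole counts, Sh3gl1-/- minus WT was -7.31 (10 most used), -2.84 (proximal part) and -13.9 points (opposite strand) in transitional cells, -2.27 and -2.30 (10 most used, opposite strand) in follicular cells, and -0.360 and 0.0963 (opposite strand, Iglv) after CD40L. Follicular minus transitional was then 1.12 (10 most used) and 5.22 (proximal part), and CD40L minus follicular 0.970 (10 most used) and -1.77 (Iglv). Without the 2 libraries with the most Jchain, the transitional genotype differences were 0.0817 (effective number), -2.09 (proximal part) and -1.03 (opposite strand), and follicular minus transitional was -0.452 (effective number), 2.55 (10 most used) and 3.11 (proximal part). Without Igkv12-41 the proximal part was -2.32 by genotype in transitional cells and 2.79 by state, the 10 most used -0.164 by genotype in follicular cells and 0.906 by state, and the proximal part 0.0544 for CD40L. Beside the proximal part by state, differences that passed the adjusted threshold only then were -0.212 (Igkv percent), 3.43 (opposite strand), -8.03 (Iglv) and 0.0671 (separation) by state, and -0.0978 (Igkv percent), -2.84 (opposite strand) and 0.0202 (separation) for CD40L. Igkv percent by state and the opposite strand for CD40L had the smallest possible p with all segments too. Their adjusted p fell because more of the 35 tests reached that p, so passing then is no stronger result. TPM turned the state difference of the opposite strand to -0.129, and pseudogenes in the denominator turned the proximal part for CD40L to 0.0814. The Igkv12-41 share of 48.4% was 50.7% in TPM and 48.2% with pseudogenes.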
